A study of Mus musculus with 12 samples.

Results

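Normal tissue from the colorectum of mice with 1 Apc Δ716 allele and 1 intact allele was compared with the same tissue from wild-type mice. The comparison took the 4 arrays whose titles name Apc+/- normal tissue and the 4 whose titles name wild-type normal tissue, 8 of the 12 arrays in the series. All animals were female C57BL/6N mice, 14 weeks of age, kept on a standard chow diet. Apc Δ716 is a truncating allele made by gene targeting and carried in every cell of the mouse, and the remaining 4 arrays hold polyps of the same mutant mice, numbered 103, 106, 107 and 110. The wild-type mice were numbered 102, 104, 105 and 108. The labels give 1 array per mouse and tissue and do not say where along the large intestine each piece was taken.

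Apc is a scaffold of the cytoplasmic complex that marks beta-catenin for destruction, and its loss turns on target genes of the Wnt pathway in the intestinal epithelium. Heterozygous mice keep a working copy in most cells, and polyps arise where that copy is lost. Colon wall contains epithelium, immune cells and follicles, muscle, nerves and blood, and a whole-tissue sample reads all of them together.

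A level is the log2 signal of a probe minus the 75th percentile of all probes on that array, and a difference is the mean of the 4 mutant arrays minus the mean of the 4 wild-type arrays, with its standard error (SE). Between 64.6% and 71.0% of spots were well above background per array, with 67.7 ± 2.38% (SD, n = 4) in wild-type and 67.4 ± 2.64% in mutant tissue (exact permutation test, two-sided, p = 0.743, where the smallest p possible is 0.0286). No spot was saturated. Across genes, which are not independent replicates, arrays correlated at r = 0.977 to 0.992 within the wild-type group, at 0.959 to 0.990 within the mutant group and at 0.958 to 0.990 between groups. Of the colon markers, 15 of 16 genes of absorptive colonocytes and 12 of 12 of goblet cells were bright enough to be tested. All 4 wild-type arrays share 1 slide, mutant mice 103 and 106 share a second slide and 107 and 110 another, so slide and genotype cannot be told apart.

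The level of the Apc transcript was similar in both genotypes and did not pass the test. The probe, on chromosome 18 at 34432157 to 34436232 (mm9), read −3.20, −3.25, −3.19 and −3.23 in the wild-type mice and −3.17, −2.93, −3.27 and −3.26 in the mutant mice. The ranges overlapped, and the difference was 0.06 ± 0.10 (SE; limma adjusted p = 0.816). The labels do not say whether this probe covers sequence changed in the targeted allele, so the reading checks no genotype. The other 15 genes of the list for Apc and the beta-catenin destruction complex did not pass the test either. Their smallest adjusted p was 0.312, and the median of the list was −0.06, beside −0.02 over all genes tested.

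Few transcripts passed the test between the genotypes. Of 19291 genes tested, 46 (0.238%) passed limma's test at a Benjamini-Hochberg adjusted p under 0.05, with 39 higher (0.202%) and 7 lower (0.0363%) in mutant tissue. Named by what they encode, the higher genes included adult globins and the heme enzyme Alas2, the metalloproteinase Mmp7, the Wnt inhibitor Wif1, the chemokine Cxcl9 and the regulatory T cell factor Foxp3. In all 46 the 4 mutant arrays lay outside the range of the 4 wild-type arrays, a pattern that 10.4% of all genes showed. Unadjusted p was under 0.05 for 3351 genes (17.4%), higher for 8.03% of all genes and lower for 9.34%.

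How many genes passed depended on single arrays. None passed without wild-type mouse 105, mutant mouse 106 or mutant mouse 110 (2110, 2615 and 2815 genes at an unadjusted p under 0.05), and only Mmp7 passed without wild-type mouse 104 or 108. Without wild-type mouse 102 there were 8 genes, without mutant mouse 107 there were 9, and without mutant mouse 103 there were 587. Each of the 46 genes kept its direction and an unadjusted p under 0.05 in all 8 of these fits. The 46 had been chosen by the fit to the same 8 arrays, and their groups did not overlap. Leaving out 1 array therefore could not turn a direction, and a low unadjusted p was likely in advance. Over these fits adjusted p ran from 0.0049 to 0.0749 for Mmp7, and the highest of any of the 46 genes was 0.181, for Adam5 and a clone. Set against the wild-type slide, the mutant mice of 1 slide (103 and 106) gave 0 genes past limma's test (2037 at an unadjusted p under 0.05) and those of the other slide (107 and 110) gave 38, of which 5 were among the 46. With normexp background correction and quantile scaling 3 genes passed, 3 higher and 0 lower.

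Genes of red blood cells stood higher in all 4 mutant mice. Of 7 tested members of the list, Hba-a1, Hba-a2, Hbb-bt and Alas2 rose, against 0.202% of all genes, and none fell. In 6 the groups did not overlap, all 6 higher, against 4.69% of all genes. The median difference was 1.89. In whole tissue, more cells of a type and more RNA per cell cannot be told apart.

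Adult mouse haemoglobin joins alpha chains, from Hba-a1 and Hba-a2, with beta chains, from Hbb-bs and Hbb-bt, around heme, whose synthesis in red cell precursors starts with Alas2. The 250 bases before the start of these genes are printed because they are the genes that moved together. They are RefSeq sequence of build GRCm38.p6, with capitals for GATA words (AGATAA or AGATAG, and also TGATAA or TGATAG) and CACC boxes (CCNCNCCC) on either strand.
Hba-a1, chr11:32283422-32283671, plus strand: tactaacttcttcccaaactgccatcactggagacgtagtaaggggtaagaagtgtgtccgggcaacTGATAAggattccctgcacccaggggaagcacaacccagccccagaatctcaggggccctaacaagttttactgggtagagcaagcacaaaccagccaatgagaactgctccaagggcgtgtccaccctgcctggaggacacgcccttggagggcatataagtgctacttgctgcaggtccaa
Hbb-bs, chr7:103827929-103828178, minus strand: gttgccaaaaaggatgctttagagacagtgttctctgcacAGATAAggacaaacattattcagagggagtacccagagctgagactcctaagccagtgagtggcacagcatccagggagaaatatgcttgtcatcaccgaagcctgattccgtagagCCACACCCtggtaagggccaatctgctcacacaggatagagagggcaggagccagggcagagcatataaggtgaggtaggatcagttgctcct
Hbb-bt, chr7:103813924-103814173, minus strand: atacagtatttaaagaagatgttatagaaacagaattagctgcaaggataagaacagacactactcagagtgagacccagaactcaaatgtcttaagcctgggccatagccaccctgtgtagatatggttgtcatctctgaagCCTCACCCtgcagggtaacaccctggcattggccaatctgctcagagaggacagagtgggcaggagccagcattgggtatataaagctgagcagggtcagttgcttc
Alas2, chrX:150547167-150547416, plus strand: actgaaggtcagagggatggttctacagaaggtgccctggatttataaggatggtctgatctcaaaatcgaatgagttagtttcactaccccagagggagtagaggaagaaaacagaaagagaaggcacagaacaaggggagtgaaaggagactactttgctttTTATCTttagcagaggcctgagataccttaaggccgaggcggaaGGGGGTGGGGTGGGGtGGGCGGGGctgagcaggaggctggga
The windows of Hba-a1, Hbb-bs and Alas2 each hold 1 GATA word, and the window of Hbb-bt holds none. A CACC box is found in Hbb-bs and Hbb-bt, 1 each, and 4 matches stand in Alas2, the first 3 of them overlapping. Of 32851 windows of the same length, 26.5% hold a GATA word, 45.9% a CACC box and 8.19% both, and the motifs were chosen after the values were seen. The window of Hba-a2 matches that of Hba-a1 at all 247 bases compared after a shift of 3 bases.

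Hbb-bt read 1.77, 1.04, 1.26 and 0.62 in the wild-type mice 102, 104, 105 and 108, and 3.59, 4.18, 4.08 and 3.45 in the mutant mice 103, 106, 107 and 110. It rose 6.31-fold, by 2.66 ± 0.27 (limma adjusted p = 0.0323). Alas2 read −2.56, −3.12, −3.04 and −3.51 in wild-type and −0.78, −0.23, −0.38 and −0.87 in mutant tissue, and rose 5.63-fold, by 2.49 ± 0.23 (adjusted p = 0.0248). For both genes the gap between the groups was wider than the spread within either.

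Hba-a1 stood at 3.30, 2.74, 2.97 and 2.29 in wild-type and at 4.65, 5.19, 4.84 and 4.46 in mutant mice (1.96 ± 0.24, adjusted p = 0.0358). Hba-a2, its near-identical copy, stood at 4.27 ± 0.39 (SD, n = 4) and 6.16 ± 0.28 (1.89 ± 0.22, adjusted p = 0.0358). Hbb-bs, which is not on the list because the list holds the older symbol Hbb-b1, stood at −0.89 ± 0.49 and 1.38 ± 0.34 (2.27 ± 0.27, adjusted p = 0.0358). Globin copies share sequence, so the 4 globin probes are not 4 independent readings. In wild-type tissue mouse 102 was the highest and mouse 108 the lowest for all 4 globins and Alas2.

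The remaining members of the red cell list did not pass. Slc4a1, the anion exchanger of the red cell membrane, read −4.37, −4.94, −4.84 and −4.62 in wild-type and −3.99, −2.98, −2.88 and −3.46 in mutant tissue (1.37 ± 0.26, adjusted p = 0.0732). Ahsp, the chaperone of free alpha chains in red cell precursors, overlapped between the groups (0.20 ± 0.29, adjusted p = 0.763).

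**Figure D1:**
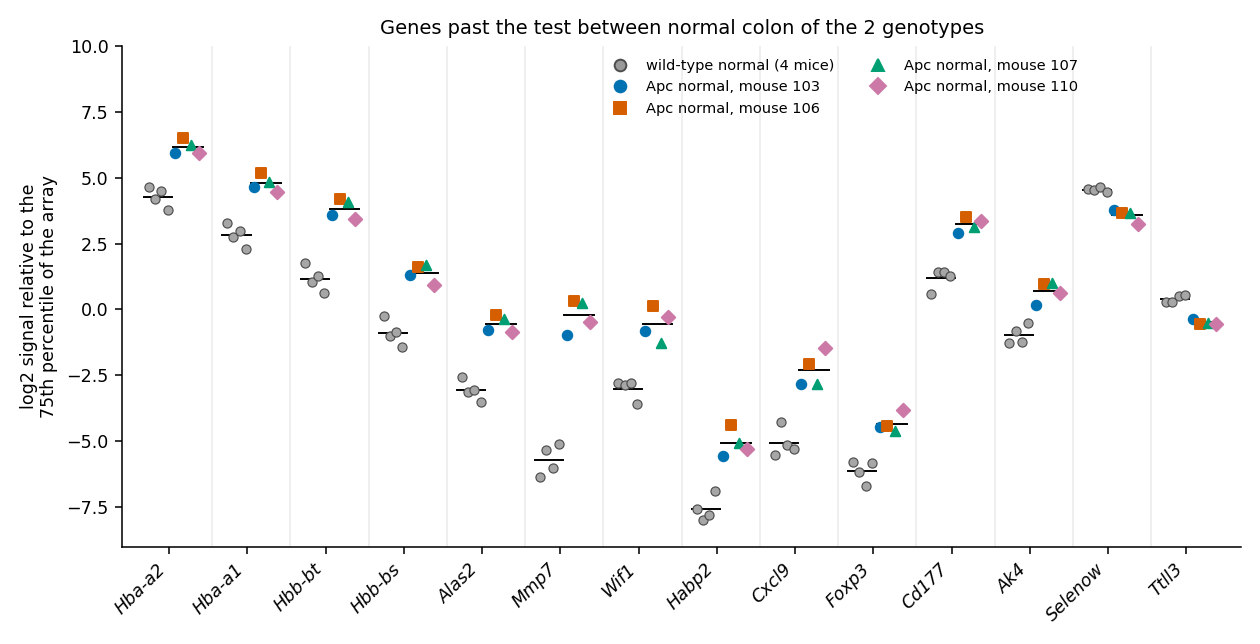
Log2 signal (array 75th percentile set to 0) for 14 of the 46 genes past the test. Grey points are the 4 wild-type mice in the order 102, 104, 105 and 108, coloured symbols the 4 mutant mice, and lines the group means. In each gene every mutant value lies on 1 side of every wild-type value, above for 12 genes and below for Selenow and Ttll3, and Mmp7 has the widest gap of those drawn.

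Mmp7 had the largest difference of all genes that passed. It encodes matrilysin, a metalloproteinase that Paneth cells of the small intestine use to activate alpha-defensins and that intestinal tumours also make. The probe, on chromosome 9 at 7697641 to 7697700 (mm9), read −6.38, −5.34, −6.03 and −5.13 in wild-type mice and −0.97, 0.33, 0.26 and −0.48 in mutant mice. Every mutant array lay over 4 log2 units above the highest wild-type array, and the rise was 45.3-fold by measured signal (5.50 ± 0.38, adjusted p = 0.00785). Only 2 of the 4 wild-type arrays were well above background there, so Mmp7 entered the test only through the mutant arrays.

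The alpha-defensins, antimicrobial peptides stored in Paneth cell granules, had differences of like size that varied widely between mutant mice and did not pass. Defa23 read −5.26, −5.57, −5.78 and −5.33 in wild-type and −0.44, 2.31, −2.36 and −0.06 in mutant tissue (5.35 ± 0.83, adjusted p = 0.0568). For Defa36 no wild-type array was well above background, and mutant tissue was higher by at least 15.2-fold (−2.69, 0.73, −4.27 and −1.80, adjusted p = 0.0568). Defa3 differed by 4.39 ± 1.02 (adjusted p = 0.108). In all 3, mouse 106 was the highest mutant and mouse 107 the lowest. Defensin genes are near-identical copies, so these probes may read shared transcripts.

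Of 6 tested genes of the Paneth cell and small intestine list, Mmp7 alone passed, against 0.238% of all genes. All 6 differences were above 0, with a median of 1.07, against 8908 of all 19291 genes tested. A member dim in wild-type tissue, such as Mmp7, was tested only if every mutant array was well above background. Both counts therefore lean to higher by construction. Lyz1, the Paneth cell lysozyme, read 2.07, 1.44, 1.31 and 1.13 in wild-type and 2.10, 2.98, 1.62 and 2.64 in mutant mice (0.85 ± 0.32, adjusted p = 0.24). Itln1, a lectin of Paneth and goblet cells, differed by 1.04 ± 0.33 (adjusted p = 0.182), and its groups overlapped as well. The small intestinal bile acid binding protein Fabp6 and sucrase-isomaltase Sis differed by 1.1 ± 0.73 and 0.50 ± 0.33, both with adjusted p = 0.471.

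Some other epithelial defence genes stood higher in all mutant mice without passing. In the list of Reg and antimicrobial genes the groups of 6 of 12 tested members did not overlap, all 6 higher, against 4.69% of all genes. None passed, and the median was 1.65. Of the 12 differences 10 were above 0 and 2 below, the lowest at −1.34. Duoxa2, the maturation factor of the peroxide-making oxidase Duox2, read −0.09, 0.91, 0.43 and 0.48 in wild-type and 1.55, 2.67, 2.24 and 2.36 in mutant tissue (1.77 ± 0.28, adjusted p = 0.0568). A second Duoxa2 probe differed by 1.20. Duox2 itself differed by 1.53 ± 0.34 (adjusted p = 0.1), while its second probe, above background on all 8 arrays, differed by 0.12. The iron-trapping protein gene Lcn2 differed by 1.87 ± 0.46 (adjusted p = 0.118) and the secreted phospholipase gene Pla2g2a by 2.08 ± 0.48 (adjusted p = 0.108). Saa3, an acute phase protein gene, read −4.08, −4.77, −5.05 and −4.18 in wild-type and −2.88, 0.26, −1.22 and −0.08 in mutant mice (3.54 ± 0.65, adjusted p = 0.0709). For Reg3g, a C-type lectin gene, the 4 mutant values ran from −3.48 in mouse 103 to 4.78 in mouse 107.

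Of 18 Wnt pathway targets tested, 1 rose, against 0.202% of all genes, and 0 fell. The groups of 2 did not overlap, 1 higher and 1 lower, against 10.4% of all genes, and the median difference was −0.05. Wif1, a secreted antagonist that binds Wnt ligands, was the member that rose. It read −2.78, −2.88, −2.80 and −3.59 in wild-type and −0.81, 0.11, −1.26 and −0.27 in mutant mice, a 5.47-fold rise (2.45 ± 0.32, adjusted p = 0.0401). The groups were separated by over 1 log2 unit.

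Axin2, the feedback scaffold of the destruction complex, read −4.86, −4.62, −4.75 and −4.56 in wild-type and −4.57, −5.24, −5.06 and −5.35 in mutant mice, with overlap (−0.36 ± 0.18, adjusted p = 0.341). Myc, a growth-promoting transcription factor, differed by −0.10 ± 0.16 (adjusted p = 0.786), and Lgr5, the stem cell receptor, by −0.21 ± 0.16 (adjusted p = 0.549). Ascl2, a stem cell transcription factor, stood below the wild-type range in all 4 mutant mice, at 1.15, 0.41, −0.70 and 1.12 against 1.39 to 1.92, and did not pass (−1.11 ± 0.39, adjusted p = 0.215). Sp5, Prox1 and Apcdd1 were too dim in normal tissue to be tested. Sp5 was well above background on no wild-type array and on 3 of the 4 mutant arrays. Among 11 stem cell markers and 19 cell cycle genes tested, 0 passed by limma, with 3 and 5 at an unadjusted p under 0.05, against 17.4% of all genes, and medians of −0.21 and −0.17.

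Of the immune genes past the test Cxcl9 had the largest difference. It is an interferon-induced chemokine that draws activated T cells, and read −5.54, −4.29, −5.16 and −5.30 in wild-type and −2.82, −2.07, −2.81 and −1.46 in mutant mice, a 6.86-fold rise (2.78 ± 0.37, adjusted p = 0.0462), and a second probe, well above background on 4 of the 8 arrays, read higher in all 4 mutant mice. Of the 17 interferon response genes Cxcl9 was the only member past the test, and the list median was 0.49. Ifit1, an antiviral effector gene, differed by 1.09 ± 0.25 (adjusted p = 0.106), and Cxcl10, a chemokine that uses the same receptor as Cxcl9, differed by −0.37. Foxp3, the transcription factor that defines regulatory T cells, read −5.81, −6.15, −6.70 and −5.82 in wild-type and −4.45, −4.44, −4.63 and −3.82 in mutant mice (1.78 ± 0.25, adjusted p = 0.049). Only 1 wild-type array was well above background for Foxp3, so it too entered the test only through the mutant arrays.

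General T cell genes did not pass. Of 10 tested T and NK cell markers 0 passed by limma, with 5 at an unadjusted p under 0.05, all 5 higher, against 8.03% of all genes. Cd3d, a chain of the T cell receptor complex, differed by 1.37 ± 0.46 (adjusted p = 0.202) and the granzyme gene Gzma by 1.37 ± 0.30 (adjusted p = 0.1), with all mutant values above all wild-type values in both. Cd4 differed by −0.13 ± 0.20 with its brightest probe and by 0.39 with another. The brightest probe of Cd8a was well above background on no array of either group, and a second probe on 2 of the 8.

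Several mast cell proteases on the marker list stood higher in all mutant mice, none of those past the test. Of 7 tested mast cell markers 4 had higher groups that did not overlap, Mcpt1, Mcpt2, Mcpt4 and Cpa3, against 4.69% of all genes, while the tryptase gene Tpsb2 overlapped (0.46 ± 0.27, adjusted p = 0.41). Mcpt4, a chymase of connective tissue mast cells, read −3.83, −3.93, −4.45 and −2.69 in wild-type and −1.79, −1.71, −0.94 and −0.79 in mutant tissue (2.42 ± 0.40, adjusted p = 0.0604). Mcpt1, of mucosal mast cells, differed by 2.59 ± 0.49 (adjusted p = 0.074). Cma2, a chymase-family gene of the same chromosome 14 cluster that is not on the list, rose from −2.39 ± 0.16 to −1.39 ± 0.17 (0.99 ± 0.13, adjusted p = 0.0401). Kit, the receptor of mast cells and pacemaker cells, overlapped (−0.22 ± 0.29, adjusted p = 0.735).

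Cd177, a surface protein known from neutrophils, rose 4.16-fold. It read 0.59, 1.41, 1.42 and 1.29 in wild-type and 2.92, 3.52, 3.14 and 3.35 in mutant mice (2.06 ± 0.22, adjusted p = 0.0358). The calprotectin genes S100a8 and S100a9, abundant in neutrophils, did not pass and were uneven. S100a8 read −5.43, 0.07, −2.28 and 0.22 in the mutant mice, so that mouse 103 lay within the wild-type range of −5.81 to −3.89. Elastase, Elane, differed by −0.01 (adjusted p = 0.99). The list member Camp differed by −0.89, and by −0.75 with a second probe. Of 7 tested neutrophil markers 0 passed by limma, with 4 differences above 0 and 3 below. At an unadjusted limma p under 0.05, 3 were higher and 1 lower, against 8.03% and 9.34% of all genes.

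Several genes of metabolism and transport also rose. Ak4, a mitochondrial adenylate kinase, read −1.27, −0.83, −1.24 and −0.53 in wild-type and 0.19, 0.95, 1.02 and 0.62 in mutant mice (1.66 ± 0.24, adjusted p = 0.049), and a second probe differed by 1.72. Slc30a2, a zinc transporter that loads secretory granules, rose from −4.85 ± 0.20 to −3.44 ± 0.39 (1.41 ± 0.20, adjusted p = 0.049). Habp2, a secreted serine protease that binds hyaluronan, was well above background on no wild-type array and was at least 1.80-fold higher (adjusted p = 0.0358), and it entered the test only through the mutant arrays. Gml2, which encodes a membrane-anchored protein, rose 3.20-fold (1.68 ± 0.18, adjusted p = 0.0358), and Fgf14, an intracellular growth factor homologue that tunes sodium channels, rose 2.47-fold (1.30 ± 0.16, adjusted p = 0.0392). Both other Fgf14 probes were well above background on no array.

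Many of the other genes that rose were dim. When the tested genes were divided into 4 equal groups by wild-type level, the dimmest held 33 of the 46 genes, 30 of them higher, and the others held 7, 3 and 3. A gene too dim in wild-type tissue was tested only if every mutant array was well above background, so the dimmest group favours higher genes by construction. The 33 included genes of olfactory and vomeronasal receptors and of germ cells. Their differences were 1.39 for Olfr122, 1.53 for Vmn1r87, 1.47 for the zinc finger gene Zim3, 1.32 for the sperm channel subunit gene Catsperg2, 0.93 for the meiosis gene Meiob and 0.80 for the sperm surface gene Adam5. Of the 46, 12 carried clone or probe names. All 8 arrays were well above background for 34 of the 46, and the others entered the test through 1 genotype alone. The median difference was 0.07 in the dimmest group and −0.05, −0.04 and −0.03 in the brighter ones.

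The 7 lower genes were small in size and tight. Selenow, a small selenoprotein of redox defence, read 4.57, 4.52, 4.66 and 4.46 in wild-type and 3.78, 3.65, 3.66 and 3.23 in mutant mice and fell 1.96-fold (−0.97 ± 0.14, adjusted p = 0.049). Ttll3, a tubulin glycylase of cilia, read 0.27, 0.27, 0.49 and 0.54 in wild-type and −0.34, −0.57, −0.51 and −0.54 in mutant mice and fell 1.85-fold (−0.88 ± 0.11, adjusted p = 0.0358). Both further probes of Ttll3 were lower too, at −0.91 and −1.15.

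Tcp11, a sperm motility gene, fell from −2.07 ± 0.25 to −3.34 ± 0.14 (−1.27 ± 0.15, adjusted p = 0.0358). Trank1 fell by 0.93 ± 0.11 (adjusted p = 0.0358), the organic anion transporter family gene Slc22a13b by 0.89 ± 0.12 (adjusted p = 0.0462), and Lmod3, an actin nucleator of striated muscle, by 1.12 ± 0.16 (adjusted p = 0.049). The seventh was the unnamed locus Gm3853. In each of the 7 the highest mutant array was below the lowest wild-type array.

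Genes of the muscle coat and of enteric nerves stood lower in mutant tissue, none past the test. All 12 smooth muscle genes had differences below 0, with a median of −0.46 and 4 whose groups did not overlap, Acta2, Des, Actg2 and Tpm2, against 5.71% of all genes. Des, the intermediate filament desmin, read 3.26, 3.27, 3.82 and 3.45 in wild-type and 2.57, 3.0, 3.1 and 2.51 in mutant mice (−0.66 ± 0.19, adjusted p = 0.158). Of 11 tested genes of enteric nerves and glia 9 were below 0, with a median of −0.58, and 10383 of all 19291 genes tested were below 0. Stmn2, a neuronal microtubule regulator, read −0.10, −0.18, 0.27 and 0.30 in wild-type and −0.74, −0.95, −0.38 and −1.07 in mutant mice (−0.86 ± 0.19, adjusted p = 0.0954). By limma 0 genes of either list passed, with 8 and 6 lower at an unadjusted p under 0.05, against 9.34% of all genes. In the nerve list 2 genes had groups that did not overlap. The smallest adjusted p was 0.158 in the muscle list.

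A second count asked which genes left the wild-type range by more than 1 log2 unit in every mutant mouse, whatever the test gave. There were 37 such genes (0.192%), 34 higher (0.176%) and 3 lower (0.0156%), and 14 of them had passed. The 23 that had not passed varied more between mutant mice. Besides defensins they included Clca4b, a regulator of chloride secretion, which read −3.13, −2.87, −3.67 and −2.39 in wild-type and −0.81, 2.66, 0.48 and 2.85 in mutant mice (4.31 ± 0.80, adjusted p = 0.0713). Prkg2, the cGMP-dependent kinase of the epithelium, read −7.10, −6.37, −7.29 and −5.91 in wild-type and −3.59, −3.78, −0.95 and −3.93 in mutant mice, with mouse 107 apart (3.61 ± 0.67, adjusted p = 0.0718), and was well above background on 1 wild-type array. Dlk1, a Notch-related membrane protein gene, was also highest in mouse 107, at 1.17 against −2.14 to −0.55 in the other mutants (3.15 ± 0.61, adjusted p = 0.0786).

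Chrdl2, an antagonist of bone morphogenetic proteins, read −3.41, −2.34, −2.65 and −3.57 in wild-type and −1.1, 0.47, −0.85 and −0.59 in mutant mice (2.48 ± 0.40, adjusted p = 0.0568). Gsta2, a glutathione transferase gene, stood at −0.92 ± 0.28 and 1.15 ± 0.73 (2.07 ± 0.34, adjusted p = 0.0604), and the metalloreductase gene Steap4 at −5.33 ± 0.35 and −2.06 ± 1.82 (3.27 ± 0.80, adjusted p = 0.118). Steap4 and Saa3 were highest in mice 106 and 110. The lower genes were Stmnd1, Ankrd29 and 1 clone. Stmnd1 was well above background on no mutant array and was at least 3.29-fold lower (adjusted p = 0.0604), and Ankrd29 stood at −2.05 to −1.67 in wild-type and at −3.07, −3.53, −4.58 and −3.15 (−1.73 ± 0.32, adjusted p = 0.0709).

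Of the genes well above background on every array of 1 genotype and on none of the other, Defa36 had the highest bound, followed by Ceacam12, a member of the carcinoembryonic antigen family. Ceacam12 was at least 9.19-fold higher and did not pass (adjusted p = 0.103), and its mutant values ran from −5.53 in mouse 103 to −0.08 in mouse 107. In the other direction, after Stmnd1, Olfr1564 was at least 2.22-fold lower (adjusted p = 0.0553).

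The same genes were read in the polyps, whose arrays took no part in the main test but did enter the choice of the brightest probe. Mmp7 stood at 5.76, 5.99, 6.52 and 6.34 in the polyps of mice 103, 106, 107 and 110, Wif1 at 5.15, 5.16, 4.21 and 4.63, and Habp2 at 1.90, 1.48, 2.28 and 1.62. Each of these 12 values exceeded the normal tissue of both genotypes. Defa23 reached 6.43 to 7.02 and Prkg2 0.20 to 1.13. Not all followed this order. Cd177 read 1.56 to 2.34 in polyps, below the mutant normal values, Chrdl2 read −3.63 to −1.72, and Gsta2 read −2.51 to −0.27. Cxcl9 was at −5.21 in the polyp of mouse 103 and at 1.66 to 2.04 in the other polyps. Axin2, Myc and Lgr5, which did not pass in normal tissue, stood in polyps at −2.78 to −1.56, −0.07 to 0.35 and 1.11 to 1.84.

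**Figure D2:**
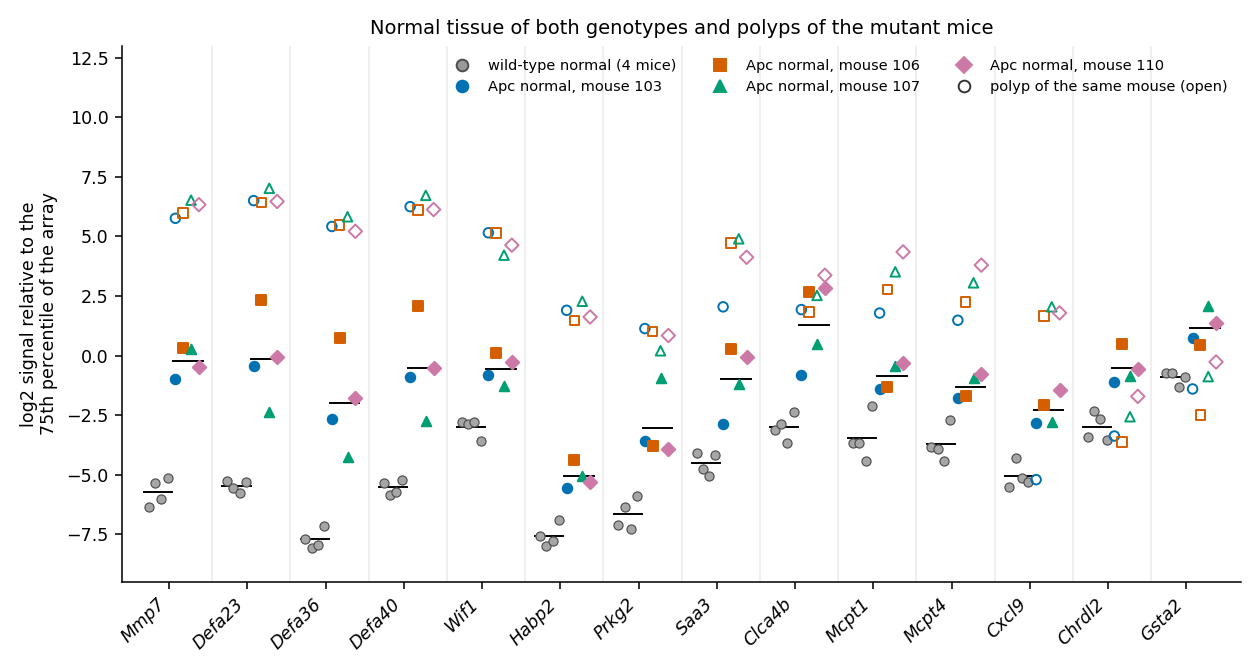
Log2 signal (array 75th percentile set to 0) in wild-type normal tissue (grey), mutant normal tissue (filled symbols) and polyps of the same mice (open symbols), with lines at the means of the normal groups. Mmp7, Defa23, Defa36, Defa40, Wif1, Habp2, Prkg2, Saa3, Mcpt1 and Mcpt4 step up from wild-type to mutant normal tissue to polyps in every mouse, while Chrdl2 and Gsta2 are highest in mutant normal tissue.

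Most departures from wild-type were not shared by the 4 mutant mice. Past the wild-type range by more than 1 in exactly 1 mouse were 762 genes higher (3.95%) and 634 lower (3.29%), in 2 mice 414 and 101, in 3 mice 63 and 35, and in all 4 mice 34 and 3. By mouse, 1034 genes left the range in mouse 107, 883 in mouse 110, 825 in mouse 106 and 126 in mouse 103. Mouse 103 thus left the range least often, and its array correlated with that of wild-type mouse 102 at 0.990.

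Of the 11 combinations of more than 1 mouse, the pair 106 and 110 held the most genes, with 338 higher (1.75%) and 30 lower (0.156%). These mice lie on different slides, but both arrays took position 3 of their slide, while mice 103 and 107 took position 1. Among the mutant arrays the pair and the position on the slide therefore cannot be told apart. Wild-type mouse 105 also took position 3. The mean level of the B and plasma cell list was −2.45 in mouse 105 and −2.72 to −1.15 in the other wild-type mice. It was −0.13 and 0.19 in mice 106 and 110. Whether position had a part was not tested. Mouse 107 alone held 329 higher (1.71%) and 442 lower (2.29%), the largest lower group. The genes were sorted by these patterns, so the counts describe the mice and are no test.

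**Figure D3:**
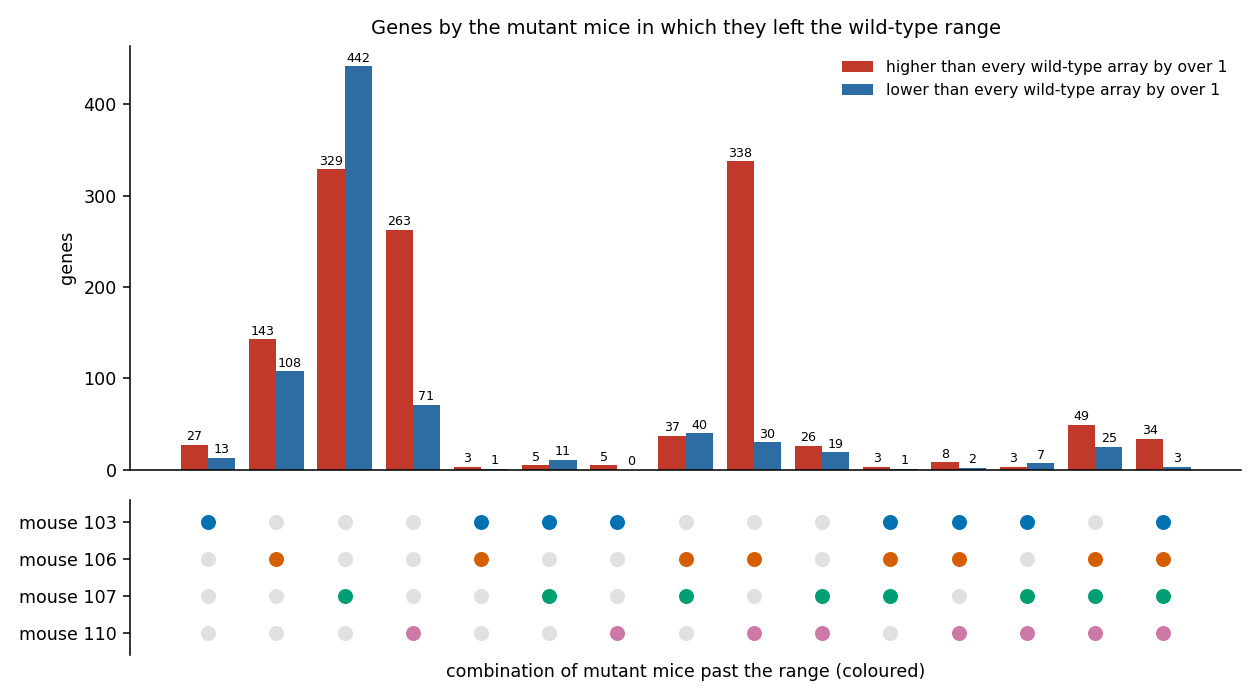
Number of genes past the wild-type range by more than 1 log2 unit, higher (red) or lower (blue), for each combination of mutant mice, shown by coloured dots under the bars. The tallest bars are those of mouse 107 alone (329 and 442 genes) and of mice 106 and 110 together (338 higher), while 34 and 3 genes left the range in all 4 mice.

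Mouse 107 differed in genes that mark position along the large intestine. Posterior Hox genes keep the identity of the distal colon and rectum. Hoxd13 read 2.0, −1.04, 1.53 and 0.26 in wild-type mice, 0.23, 1.02 and 1.55 in mutant mice 103, 106 and 110, and −7.57 in mouse 107. Hoxb13 read 5.66 to 6.03 in wild-type, 5.31 to 5.95 in the same 3 mutants and 2.44 in mouse 107. Hoxd11 and Hoxd12 in mouse 107 were at −7.93 and −7.65, both below all other normal arrays. The median deviation of the distal colon and rectum list from the wild-type mean was −2.37 in mouse 107, over 10 genes, and −0.19, 0.01 and −0.06 in mice 103, 106 and 110.

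Wild-type mice also varied in these genes. Hoxd12 read −0.22 and −0.05 in wild-type mice 102 and 105 and −4.53 and −3.36 in mice 104 and 108. Among mutants, mouse 103 was at −4.47.

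Some genes of more proximal segments were high in mouse 107. Fabp2, the intestinal fatty acid binding protein, read 2.69 to 4.47 in wild-type, 3.89, 2.78 and 2.02 in mutant mice 103, 106 and 110, and 7.49 in mouse 107. Cyp2c55, a cytochrome P450 of the proximal large intestine, read 4.06 to 5.08 in wild-type and 6.86 in mouse 107. The proximal colon list as a whole had a median deviation of 0.26 in mouse 107, and of −0.24, −0.71 and −0.70 in mice 103, 106 and 110. By this median mice 106 and 110 lay further from the wild-type mean than mouse 107. The list member Ly6g was low in mouse 107, at 1.03 against 3.49 to 4.37 in wild-type.

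By the rule for genes high or low in 1 mouse alone, mouse 107 held 187 higher and 182 lower, and the other 3 mice held 13 to 33 higher and 3 to 13 lower each. The strongest in mouse 107 were Retnlb and B3gnt6, higher, and Reg4 and Oscar, lower. B3gnt6, which builds core O-glycans of mucins, read −3.74 to −2.99 in wild-type, −3.23, −2.61 and −3.95 in the other mutants and 3.45 in mouse 107. Reg4, a secreted lectin of deep crypt cells, read 4.44 to 5.0 in wild-type, 4.65, 5.16 and 4.14 in the other mutants and −0.64 in mouse 107. Retnlb, the goblet cell hormone RELM-beta, read 5.97 in mouse 107, but wild-type mice spread from −4.31 to 2.77. Oscar read −2.58 in mouse 107 and 0.46 to 2.39 in the other 7 mice.

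The polyp of mouse 107, a separate tissue piece, was set beside these genes. It was the highest of the 4 polyps for 87 of the 187 higher genes (46.5%), against 25.7% of all genes tested, and the lowest for 61 of the 182 lower genes (33.5%), against 21.3%. Hoxd12 was at −7.62 in that polyp and at −1.13 to 1.61 in the others, and B3gnt6 was at −1.01 against −4.77 to −2.48. For the other mice the same reading varied and rests on few genes. It held for 8 of 25 higher and 8 of 13 lower genes in mouse 106, 11 of 33 and 1 of 12 in mouse 110, and 4 of 13 and 1 of 3 in mouse 103. Of the genes past the range in mice 106 and 110 only, both their polyps lay above the others for 14.5% of those higher, against 16.8% of all genes, and below the others for 23.3% of those lower, against 13.4%. Reg4 in the polyp of mouse 107, at 4.42, lay within the range of the other polyps.

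Mice 106 and 110 shared higher signals of B cells and lymphoid follicles. Cd79a, a signalling chain of the B cell receptor, read 1.30 and 2.03 in these mice, −1.31 and −1.80 in mice 103 and 107, and −0.04, −1.60, −1.39 and −1.54 in wild-type mice, a difference of 1.20 between genotypes against 0.26 with a second probe. Ms4a1, which encodes CD20, read 0.53 and 1.01 in mice 106 and 110, −2.38 and −5.01 in mice 103 and 107, and −3.96 to −0.54 in wild-type. Wild-type mouse 102 was the highest of its group for both genes.

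The follicle chemokine Cxcl13, which attracts B cells, read 1.64 and 2.13 in mice 106 and 110, −0.48 in each of mice 103 and 107, and −1.90 to −0.82 in wild-type (2.13 ± 0.64, adjusted p = 0.172). Over 11 genes of B and plasma cells the median deviation from wild-type was 2.45 and 2.87 in mice 106 and 110, and 0.07 and −0.70 in mice 103 and 107. Over 9 genes of follicle stroma and chemokines the values were 1.72 and 1.89, and 0.38 and 0.04. MHC class II genes, which B cells and myeloid cells use to present antigen, gave 1.32 and 1.40, and 0.20 and −0.04. No gene of the 3 lists passed, and the medians over all 4 mutant mice were 0.97, 1.20 and 0.74.

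The rule for genes of this pair named Lrg1, Igkv6-20 and Defa42 as highest and Tmem35a, Odf3b and Btnl1 as lowest. Lrg1, a secreted glycoprotein induced by inflammation, read 1.74 and 2.47 in mice 106 and 110, −0.94 and −0.53 in mice 103 and 107, and −2.13 to −1.25 in wild-type. Igkv6-20, a segment of the antibody light chain, read 0.71 and 1.26, −1.97 and −1.33, and −3.69 to −1.52. Tmem35a read −4.96 and −3.90 in the pair, −2.98 and −2.93 in the other mutants and −2.39 to −1.32 in wild-type.

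**Figure D4:**
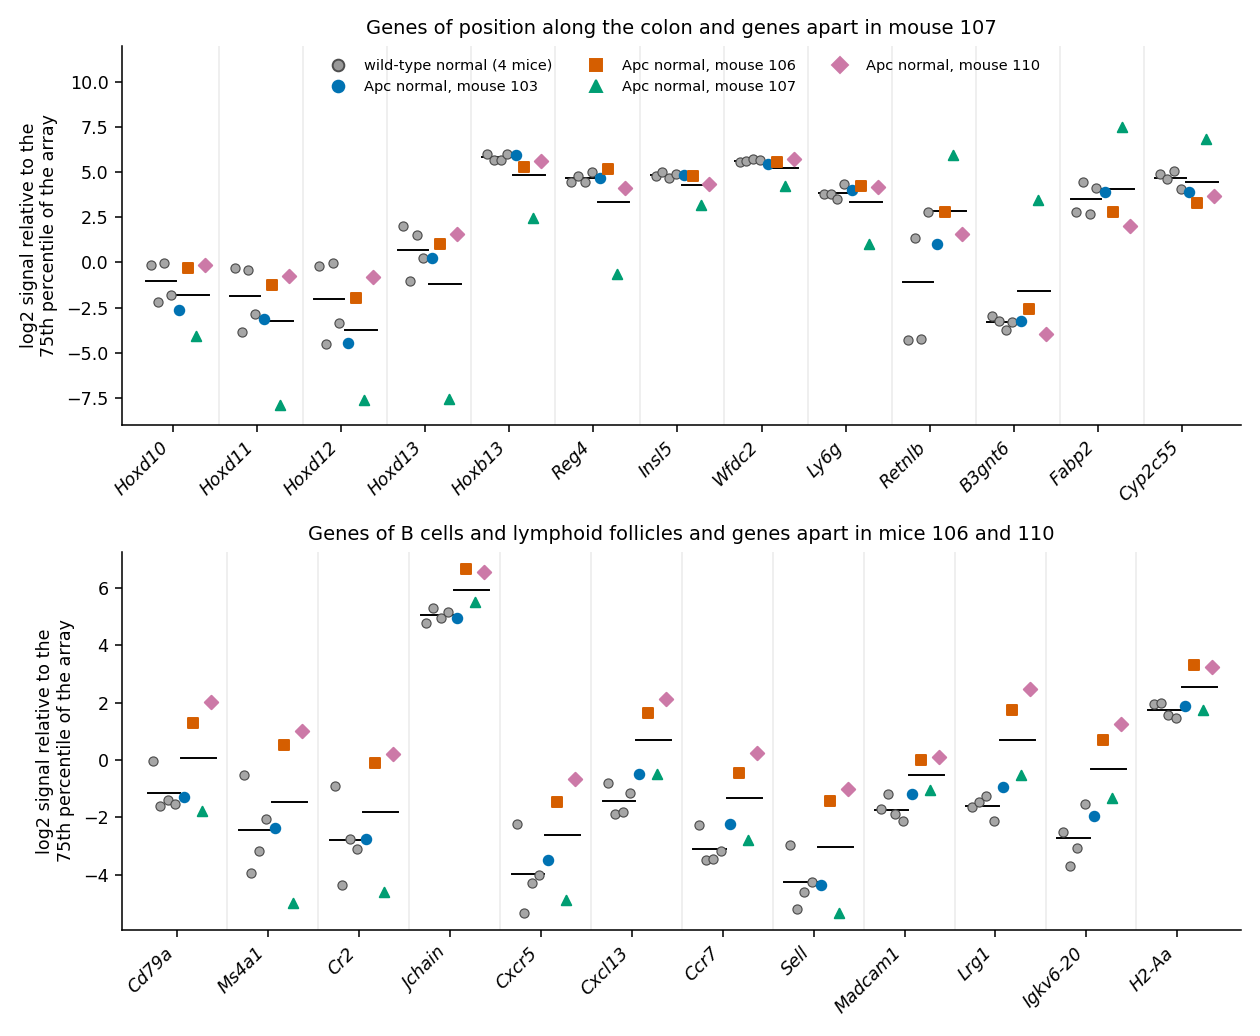
Log2 signal (array 75th percentile set to 0), with grey points for wild-type mice, coloured symbols for mutant mice and lines at group means. In the upper panel mouse 107 (triangles) is apart from all other mice for Hoxd13 (−7.57), Hoxb13 (2.44), Reg4 (−0.64) and B3gnt6 (3.45), and in the lower panel mice 106 and 110 (squares and diamonds) lie above all other mice.

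Fat markers differed between single mice of both genotypes. Adipoq, the fat cell hormone adiponectin, read −4.76, −0.48, −3.48 and −2.95 in wild-type and −7.37, −2.95, −0.54 and −1.75 in mutant mice. Car3, a carbonic anhydrase of fat and muscle, was lowest in mutant mouse 103, at −4.07, below wild-type values of −2.19 to 1.70. The median deviation of 8 fat genes was 1.77 and 0.96 in mice 107 and 110 and −0.42 and −0.02 in mice 103 and 106. What part fat, follicles or position along the colon had in the comparison of genotypes was not tested.

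The remaining mice gave few genes of their own. In mouse 103 these were Dnah7b, an axonemal dynein gene (−2.48 against −5.02 to −4.05 in wild-type), and Gpx7, a peroxidase of the endoplasmic reticulum (−2.22 against −4.40 to −3.94), with Pcp4, a calmodulin regulator, at the low end (−1.48 against −0.47 to 0.94). In mouse 106 they were Gstcd (−0.37 against −5.32 to −4.06) and Olfr1350, higher, and Shisal1 and Angptl7, lower, and a second Gstcd probe differed between genotypes by −0.09. In mouse 110 they were Chst3, a sulfotransferase gene, and the phosphatase gene Dusp13, higher, and Vmn1r48 and the keratin gene Krt17, lower, and a second Dusp13 probe differed by −0.10 with no mutant array above the wild-type range.

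Of the metabolic and housekeeping lists, those of the TCA cycle, oxidative phosphorylation and fatty acid oxidation had medians near that of all genes, −0.02. Medians were −0.04 over 20 genes of the TCA cycle, 0.03 over 22 of oxidative phosphorylation and −0.05 over 20 of fatty acid oxidation. They were 0.16 over 18 genes of glycolysis and 0.16 over 20 of ribosome biogenesis. By limma 0 genes of these lists passed, with 1, 1, 0, 5 and 3 at an unadjusted p under 0.05, against 17.4% of all genes. Differences were above 0 for 15 of 18 genes of glycolysis and 16 of 20 of ribosome biogenesis, against 8908 of all 19291 genes tested. Amino acid and serine metabolism had a median of 0.34, with 13 of 17 genes above 0 and none past the test. At an unadjusted limma p under 0.05, 6 of its genes were higher and 1 lower, against 8.03% and 9.34% of all genes. Sterol and fatty acid synthesis had a median of 0.44, with 17 of 20 genes above 0 and none past the test. Fdps, a farnesyl diphosphate synthase, differed by 0.82 (adjusted p = 0.181). Of 17 genes of the unfolded protein response 15 were above 0 (median 0.29), and of 9 tuft cell genes all 9 (0.20), with none past the test in either. Absorptive colonocyte, goblet and enteroendocrine lists had medians of −0.13, 0.09 and −0.03.

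**Figure D5:**
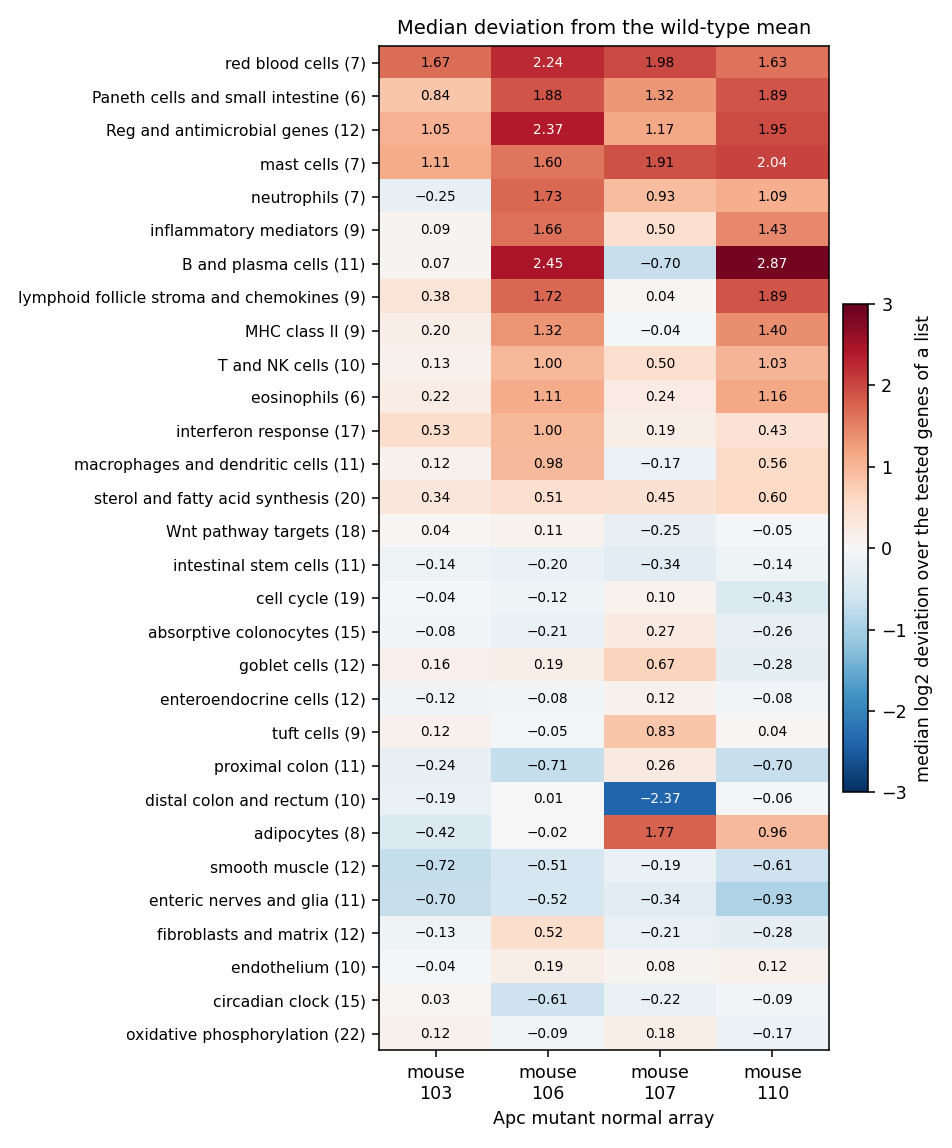
Median log2 deviation from the wild-type mean, over the tested genes of each list (their number in parentheses), in the 4 mutant normal arrays. Red blood cell genes are raised to a like degree in all 4 mice (1.63 to 2.24), B and plasma cell genes in mice 106 and 110 (2.45 and 2.87), and genes of the distal colon and rectum are low in mouse 107 (−2.37).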

How the data were processed

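Per the file headers, the deposited scanner tables give Cy3 spot intensity after background subtraction by Agilent Feature Extraction, whose version 10.7.3.1 the submitters' processing notes also list. The deposited value table, used as an alternative, holds a linear ratio, and how it was made is not stated in its header or the labels. Probe coordinates are mm9, per the file headers. Without control spots and 924 outlier spots, log2 signals were averaged per probe and the array's 75th percentile was subtracted. RefSeq tables named 27508 of 39429 probes by accession, 3544 by symbol and 404 by synonym, and 7973 kept the file's name. The brightest probe stood for each of 30139 genes or transcripts. Testing took the 19291 that were well above background on every array of 1 genotype or both, with limma 3.58.1 in R 4.3.3 (linear model and empirical Bayes, two-sided, no fold minimum). Counts of genes outside the wild-type range used 19271 genes with no missing value.

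Where no array of a group was well above background, the fold is a bound: in the dim group each array entered at its own signal or at its lowest signal well above background, whichever was higher. The naming rule took Apc, Myc, Axin2, Lgr5, then from genes past the test and above background on all 8 arrays the 10 with the highest and the 10 with the lowest differences, the 2 highest bounds per direction, genes apart in 1 mouse (past the range by over 1, the other mutants within 0.5 of it; 2 per direction) or in mice 106 and 110 (3 per direction), and, from each list with a member past the test, the 2 genes with the lowest p. Clone names were counted. Others were named after their values were seen. Members and lists were chosen with earlier results of these data known. On simulated data with the spreads of these arrays and 19271 genes, 50 genes each were changed by 0.5, 1, 2 and 3 log2 units. Of these, 2%, 52%, 90% and 92% were recovered, with 4 false calls. Each gene was drawn independently, with 1 pooled spread for both groups. In the real data genes moved together in single mice, and spreads differed between groups for some genes. The simulated shares therefore do not give the recovery or false calls of the real comparison. The labels number the mice singly, and p-values measure the spread between these mice. Alternatives changed the scaling, background correction, filter, probe rule, variance model, slide handling and arrays used.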

Additional observations from a re-analysis of the deposited data

Results flagged for a closer look

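In 98 groups of 4 arrays, 5 had a highest or lowest array whose gap to the nearest other exceeded the critical value of Dixon's test, where chance alone gives about 1 in 20. Wif1 in wild-type mouse 108 was at −3.59, below −2.88 to −2.78 in the other wild-type mice. Cd177 in wild-type mouse 102 was at 0.59, below 1.29 to 1.42. The remaining 3 genes had been chosen because 1 array stood apart: Gstcd in mutant mouse 106 (−0.37), Dusp13 in mutant mouse 110 (−1.66) and Krt17 in mutant mouse 110 (−2.73).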

How the results depend on the processing

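The count of 46 genes past the test moved to 19 with median scaling, 3 with normexp and quantile scaling, 2 with no filter on dim probes (1 of them shared), 24 with only genes above background on all 8 arrays, 15 with the mean over probes, 236 with all 12 arrays in the fit (42 shared), 11 with a variance trend and robust eBayes, 200 with array weights, 30 with a 2-fold minimum, 0 with the mutant mice of slide 2 alone, and 0 to 587 when single arrays were left out. With the slide as a random block it was 2258, at a negative estimated correlation of −0.2045, which narrows the error. Quantile scaling gave 65 and the values the authors deposited gave 46. Chosen after seeing the data, mice 103 and 107 alone gave 0 (2935 at an unadjusted p under 0.05 by limma) and mice 106 and 110 alone 2122. Mice 106 and 110 were the mutant arrays most alike (r = 0.990). High counts for this pair, here and below, were therefore favoured by the choice and are no support for a difference between genotypes.

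Genes whose groups did not overlap, 2004, numbered 3781 with the mutant mice of slide 2 alone, 5305 with those of slide 3 alone, 2233 to 4186 when single arrays were left out, 5188 with mice 103 and 107 alone and 8301 with mice 106 and 110 alone, where fewer arrays make such gaps more frequent by construction. The 37 genes past the range by over 1 in all mutant mice became 17 with normexp and quantile scaling, 22 with the stricter filter, 166 with slide 3 alone, 39 to 111 when single arrays were left out (111 without mutant mouse 103 and 58 without wild-type mouse 108), 67 with mice 103 and 107 alone and 489 with mice 106 and 110 alone. The cause was not tested for the other settings.

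All of the 46 genes kept their direction in every alternative that tested them. In the fits with fewer arrays this was fixed in advance, because the groups of all 46 did not overlap. Among named genes the sign turned for Apc, to −0.0194 with normexp and quantile scaling, −0.053 with slide 3 alone and −0.0034 with mice 103 and 107 alone (−0.0183 to 0.0962 when single arrays were left out, the lowest without mutant mouse 106), and for Myc (−0.1724 to 0.0462, the highest without wild-type mouse 104), none past the test. Signal near background limits Mmp7, Habp2, Foxp3 and the defensins in wild-type tissue, where the size of a difference rests on few or no arrays above background. No paired analysis was possible because the wild-type and mutant mice share no numbers.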
